A study of Homo sapiens with 4 samples.

Results

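The loci named for PLK2, NR2F1 and ZMYND8 carried some of the broadest stretches of H3K9ac, acetylation of histone H3 at lysine 9, in T98G glioblastoma cells. The loci were chosen from the values described here: the first holds the widest region called after RBBP4 shRNA, and the others hold some of the widest clusters of both libraries together. Members are all called regions that overlap the hg19 windows chr5:57735000-57775000 (PLK2), chr5:92900000-92940000 (NR2F1) and chr20:45965000-46000000 (ZMYND8). These are 41 of 26828 regions in the control library and 32 of 39303 in the RBBP4 shRNA library. Because width chose the loci, their widths, ranks and spans are given as a description with no test.

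T98G is a long-established line of human glioblastoma cells, and the 4 samples of the series were taken at passage 4. All cells received a lentiviral shRNA, either a non-targeting control (shNT) or one against RBBP4 (shRBBP4). Chromatin immunoprecipitation followed by sequencing (ChIP-seq) gave 1 H3K9ac library and 1 input library for each shRNA, and the region lists of both H3K9ac libraries are used here. With 1 library per shRNA there is no replicate check of any difference given here. The sequencing depth of the libraries is unknown, and RBBP4 itself was not analysed. The study set the control cells against the RBBP4 shRNA cells to compare their H3K9ac.

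H3K9ac is laid down on nucleosomes by histone acetyltransferases and removed by histone deacetylases, and it marks active promoters and the first part of transcribed genes. RBBP4 is a histone-binding subunit of several chromatin complexes, among them the Sin3 and NuRD deacetylase complexes. PLK2 encodes polo-like kinase 2, a serum-inducible serine/threonine kinase known for roles in centriole duplication and at synapses. NR2F1 encodes the orphan nuclear receptor COUP-TFI, a DNA-binding regulator of neural patterning. ZMYND8, also known as RACK7, encodes a chromatin reader with a PHD finger, a bromodomain and a PWWP domain that is known to associate with NuRD.

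The 250 bases before each gene's outermost RefSeq start are printed 5′ to 3′ on the gene's strand, from GRCh38.p14. NR2F1 and ZMYND8 have 2 listed starts each and PLK2 has 1, so the other promoter of NR2F1 and of ZMYND8 is not described. The called regions are on hg19 and no genome of that build was used, so these promoters were not placed relative to the regions, and coordinates of the 2 builds cannot be set side by side. PLK2 lies at chr5:58460087-58460336 on the minus strand, NR2F1 at chr5:93582972-93583221 on the plus strand and ZMYND8 at chr20:47356700-47356949 on the minus strand. Capitals mark matches on either strand to common promoter motifs. These are the TATA box, searched as TATAA, the CCAAT box under those letters, the GC box as GGGCGG, the core of the cAMP response element as TGACG, and the CArG box, the binding motif of serum response factor.
PLK2: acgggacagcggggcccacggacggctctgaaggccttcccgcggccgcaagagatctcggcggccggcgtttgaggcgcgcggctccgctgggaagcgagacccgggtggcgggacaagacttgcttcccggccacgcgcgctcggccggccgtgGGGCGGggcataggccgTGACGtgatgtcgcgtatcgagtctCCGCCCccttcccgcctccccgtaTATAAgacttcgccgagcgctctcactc
NR2F1: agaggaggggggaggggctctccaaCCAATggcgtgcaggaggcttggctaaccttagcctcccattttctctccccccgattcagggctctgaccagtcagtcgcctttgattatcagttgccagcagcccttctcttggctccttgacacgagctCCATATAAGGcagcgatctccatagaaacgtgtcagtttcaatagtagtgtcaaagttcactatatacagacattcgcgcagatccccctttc
ZMYND8: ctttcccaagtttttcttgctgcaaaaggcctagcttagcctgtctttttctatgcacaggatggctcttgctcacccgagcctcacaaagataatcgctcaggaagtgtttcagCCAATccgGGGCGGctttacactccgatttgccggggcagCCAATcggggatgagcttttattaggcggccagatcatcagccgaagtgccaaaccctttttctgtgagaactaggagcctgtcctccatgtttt
The 3 printed promoters differ in composition. The PLK2 promoter is 71.2% G or C and holds 37 CpG dinucleotides, against 52.4% and 8 for NR2F1, 50.8% and 9 for ZMYND8, and medians of 58.0% and 11 over 35116 RefSeq promoter entries. A TATA box match begins 28 bases before the start of PLK2 and 90 bases before that of NR2F1, where a CArG box begins at 93 bases. PLK2 also holds a GC box on each strand and a cAMP response core, ZMYND8 holds a CCAAT box at 2 places and a GC box, and NR2F1 holds a single CCAAT box. Of all promoter entries, 18.9% hold the TATA box, 32.0% the CCAAT box, 42.6% the GC box, 21.2% the cAMP response core and 1.16% a CArG box. The CArG match of NR2F1 contains its TATA box match. These are matches of letters, which were not tested as binding sites.

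Gene order comes from the RefSeq table, which is on the other build and was used for names alone. PLK2 overlaps no other gene there, and its neighbours are LOC105378984 and the protein-coding gene GAPT. NR2F1 overlaps the long noncoding RNA gene NR2F1-AS1, so acetylation at that locus cannot be assigned to either gene. ZMYND8 overlaps the noncoding genes LOC100131496 and LOC101927377. Exons, introns and start sites were not placed within the called regions.

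Joining regions of both lists across gaps of up to 1 kb gave 18106 joint clusters, and each locus was dominated by 1 of them. The NR2F1 cluster (chromosome 5, from 92914613 to 92926253) had a span of 11641 bp, at rank 3 by span. The ZMYND8 cluster (chromosome 20, from 45978802 to 45990377) had a span of 11576 bp, at rank 4. The PLK2 cluster (chromosome 5, from 57749124 to 57758345) had a span of 9222 bp, at rank 20. NR2F1 and ZMYND8 were thus neighbours in this order, between a cluster of 11853 bp on chromosome 12 and one of 11483 bp on chromosome 11. PLK2 stood between clusters of 9521 and 9214 bp. With gaps of up to 500 bp, the ZMYND8 cluster kept its span and was at rank 2, the PLK2 cluster spanned 7844 bp at rank 12, and the NR2F1 cluster split, leaving a largest piece of 5311 bp at rank 65. The breadth of NR2F1 therefore rests on joining gaps above 500 bp, and that of ZMYND8 does not. With gaps of up to 2 kb the ranks were 11 for NR2F1, 8 for ZMYND8 and 40 for PLK2. Each region also has a score, the authors' own value, which is used here as a score percentile, the place of a region within its own list with 100 the highest.

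**Figure D1:**
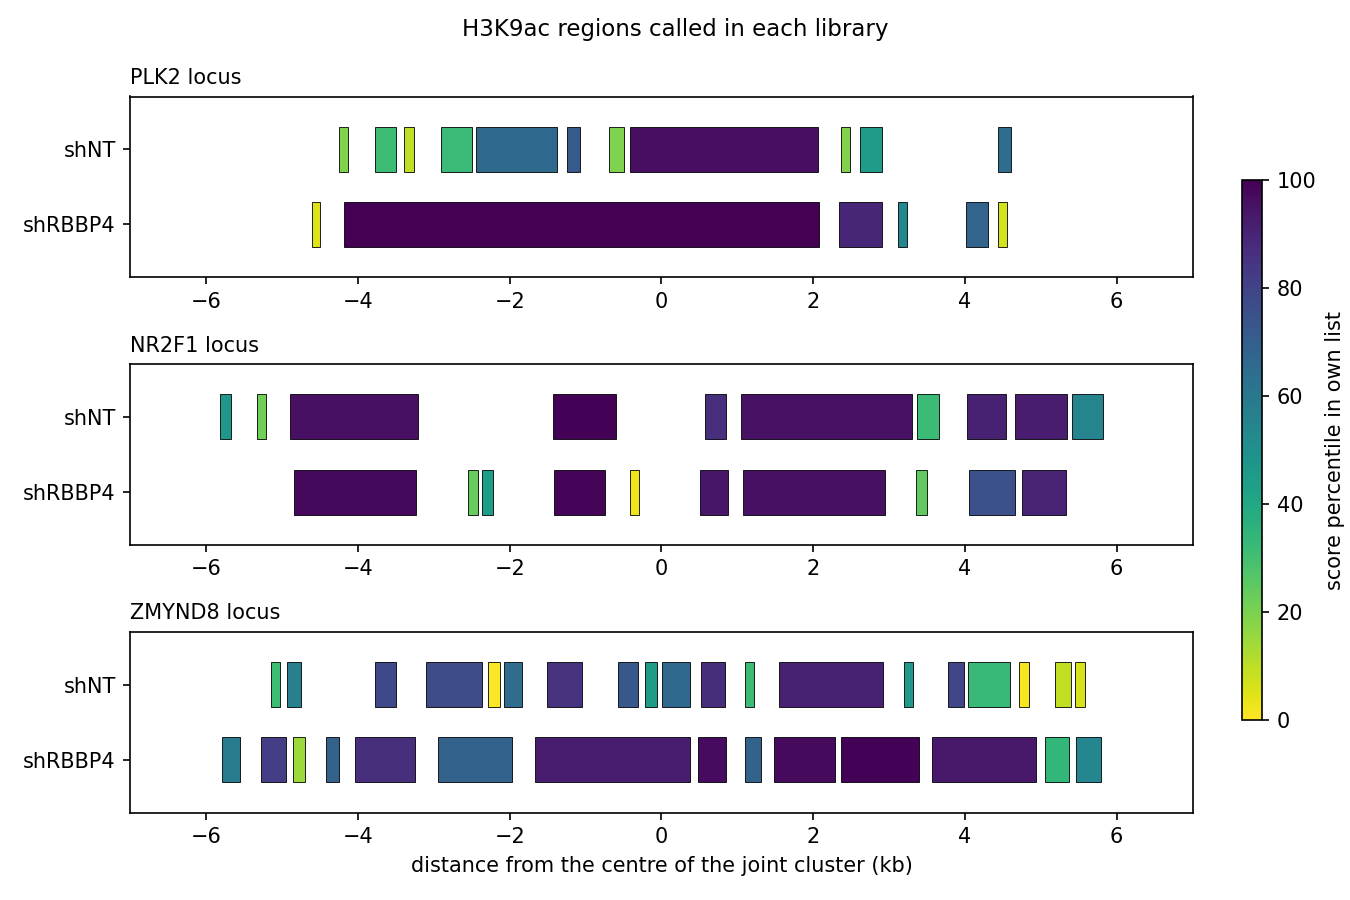
Called H3K9ac regions at the 3 loci, drawn to scale as boxes in kb from the centre of each joint cluster, with shNT above shRBBP4 and colour giving the score percentile within the library's own list. A single shRBBP4 box faces 8 shNT boxes at PLK2, the large boxes pair up at NR2F1, and shRBBP4 boxes are wider at ZMYND8. The 3 ZMYND8 window regions outside the cluster, 1 of shNT and 2 of shRBBP4, lie beyond the axis.

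At PLK2, a stretch that was called in pieces in shNT was called as a single region in shRBBP4. The shRBBP4 region ran from 57749557 to 57755808 and spanned 6252 bp, the widest of its list, where the next had 4311 bp. Over the same stretch shNT had 8 regions, of 123 to 2479 bp. The widest of these, from 57753316 to 57755794, was at rank 12 by width in shNT and ended 14 bp before the shRBBP4 region. The shNT pieces covered 76.0% of the shRBBP4 region. The rest of the shRBBP4 region was mostly the spaces between shNT pieces, which measured between 53 and 393 bp within this stretch. Whether this difference comes from the shRNA or from depth, which is unknown, was not tested. The right-hand part of the wide region was also called in 1 piece in shNT, and the left-hand part was in 7.

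Beyond the wide region, the PLK2 locus had a few small regions in each list. After a space of 269 bp that neither list covered, shRBBP4 had a region of 566 bp from 57756078 to 57756643, which faced 2 shNT regions of 123 and 286 bp. The end of the second shNT region was 6 bp from that of the shRBBP4 region. The space of 269 bp thus opened within 14 bp of the same base in both lists. The shRBBP4 regions from 57749124 to 57749239, from 57756852 to 57756967 and from 57757744 to 57758038 overlapped no shNT region. The last region of each list, from 57758173 in shNT and from 57758166 in shRBBP4, formed a pair whose starts were 7 bp apart. It stood at score percentile 64.8 in shNT and 6.75 in shRBBP4.

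Counted over the whole PLK2 window, shNT had 11 regions covering 5409 bp and shRBBP4 had 6 covering 7464 bp. The number of regions was thus lower and the covered length higher in shRBBP4, with a covered-length ratio of 1.38. This ratio was below that of the whole lists, 1.51, and that of chromosome 5, 1.55. The lower number depended on the score limit. In the higher-scoring 50% of each list both libraries had 4 regions at PLK2, while shRBBP4 still had the higher covered length, with a ratio of 1.86. In lists of equal length, which cut shRBBP4 alone, there were 11 shNT and 4 shRBBP4 regions. All 11 shNT regions overlapped an shRBBP4 region (95% Clopper-Pearson interval 71.5 to 100%, counting error only), where 77.0% of all shNT regions did. In the opposite direction, 3 of 6 shRBBP4 regions met one in shNT (11.8 to 88.2%), where 50.04% of the whole shRBBP4 list did. These intervals, and those at the other loci, treat neighbouring pieces as independent, although 8 of the 11 shNT regions met the same shRBBP4 region. They do not test a difference from the whole list. By bases, 97.4% of the length covered in shNT was covered in shRBBP4 too, and 70.6% of the shRBBP4 length was covered in shNT. Over all of chromosome 5 these shares were 77.2% and 49.8%. The locus was chosen for its wide shRBBP4 region, which by itself favours a high covered share of shNT bases. The shNT calls at PLK2 were nearly contained in the shRBBP4 calls, with 138 bp covered in shNT alone and 2193 bp in shRBBP4 alone.

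The wide PLK2 region met more counterparts than other wide regions did. Of the 100 widest shRBBP4 regions, those of 1772 bp or more, it was the sole one that overlapped 8 shNT regions, and the median was 2. In the opposite direction the 100 widest shNT regions overlapped at most 5 shRBBP4 regions, also with a median of 2. By the share of its bases covered in shNT, 76.0%, the PLK2 region was near the median of the 100 widest shRBBP4 regions, 78.5%. The PLK2 region was chosen as the widest, so this is a description.

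**Figure D2:**
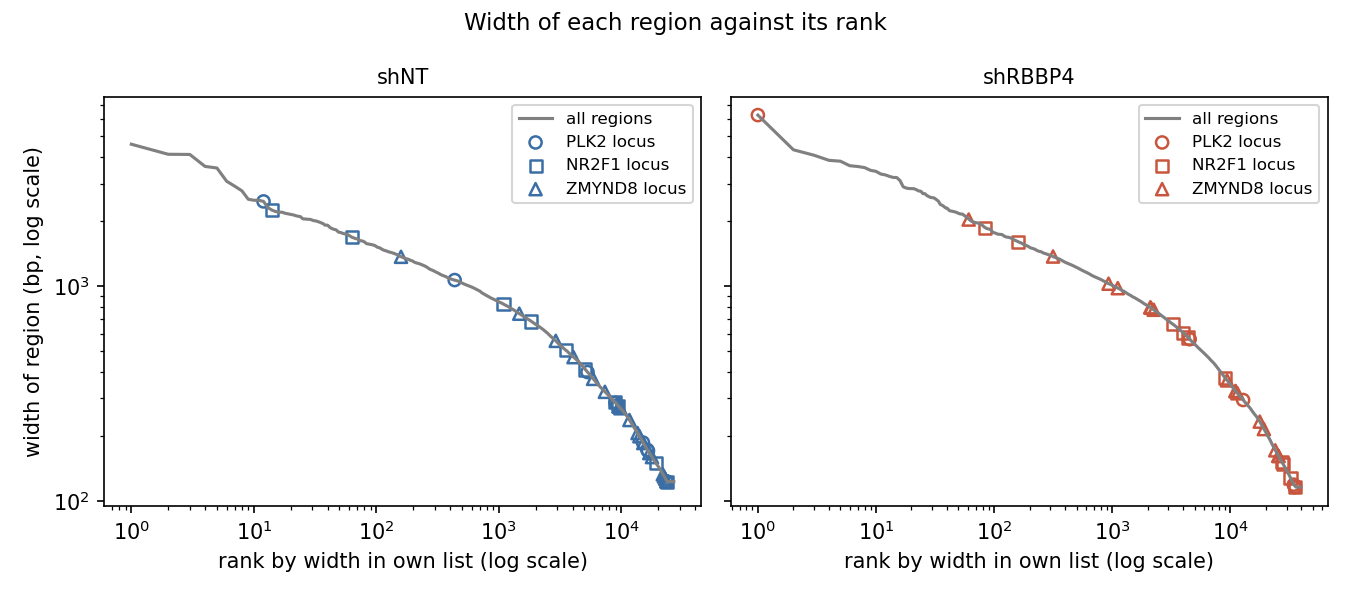
Width of each region in bp against its rank by width in its own list, both on log axes, with shNT on the left and shRBBP4 on the right. The grey line is the whole list and the symbols are the regions of the 3 loci, which run from the widest shRBBP4 region (6252 bp, PLK2) down to the narrowest width in each list, 123 bp in shNT and 116 bp in shRBBP4.

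At NR2F1 most regions of both libraries lay in nearly the same places. Each list had 10 regions in the window, and 7 of them formed pairs in which each region met no other counterpart. Paired starts differed by 14 to 89 bp, with a median of 29 bp. Paired ends differed more, by 19 to 360 bp, with a median of 126 bp. The left block ran from 92915541 to 92917230 in shNT, 1690 bp, and from 92915594 to 92917203 in shRBBP4, 1610 bp. The central block ran from 92919009 to 92919831 in shNT, 823 bp, and from 92919023 to 92919687 in shRBBP4, 665 bp. The widest block ran from 92921479 to 92923739 in shNT, 2261 bp at rank 14 of its list, and from 92921508 to 92923379 in shRBBP4, 1872 bp at rank 84. Among these 3 blocks every shRBBP4 region lay inside its shNT counterpart.

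The pieces that did not pair at NR2F1 were small and lay in different parts of the locus. In shNT they were at the outer ends: 150 and 123 bp at the left end, from 92914613 and 92915104, and 409 bp at the right end, from 92925845 to 92926253. In shRBBP4 they were in the 2 inner spaces on either side of the central block: 128 bp from 92917885, 152 bp from 92918067 and 116 bp from 92920021. The unpaired shRBBP4 pieces stood at score percentiles 23.1, 44.8 and 2.35. The unpaired shNT pieces stood at 46.5, 21.7 and 55.0. Within 1 kb, every region of either list at NR2F1 had a counterpart. The cluster is joined across that same distance, and this share was not computed over the whole lists, so it shows no particular agreement.

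The NR2F1 cluster held the widest space of the 3 clusters. In shNT the space between the left and central blocks measured 1778 bp and that between the central block and the next region 1174 bp. The next widest, 1535 bp, lay at the right end of PLK2 in shNT. The unpaired shRBBP4 pieces interrupted both spaces of NR2F1, which left spaces of 654, 54, 790, 189 and 806 bp that neither list covered. Of the NR2F1 cluster, 67.4% was covered by either list, against 82.4% at PLK2 and 83.1% at ZMYND8. The median over the 464 joint clusters of at least 4 kb with regions of both lists was 66.6%. NR2F1 was thus near the middle of such clusters by this measure, and the other loci lay above the value of 75% of them, 74.2%.

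NR2F1 was the locus of the 3 with less covered length in shRBBP4. Its regions covered 7207 bp in shNT and 6247 bp in shRBBP4, a ratio of 0.867, where the whole lists gave 1.51 and chromosome 5 gave 1.55. Among the 464 broad clusters, 18.8% had less covered length in shRBBP4. The bases covered in both lists were 5613 bp, or 77.9% of the shNT length and 89.9% of the shRBBP4 length. Over all of chromosome 5 these shares were 77.2% and 49.8%, so the shNT share was near that of its chromosome. Of the shNT regions 7 of 10 overlapped an shRBBP4 region, and so did 7 of 10 in the opposite direction (both 34.8 to 93.3%), against 77.0% and 50.04% in the whole lists. The direction of the ratio depends on how the spaces are counted: when gaps of up to 1 kb within each list were closed and counted as covered, the ratio was 1.17. It stayed below 1 in lists of equal length, at 0.812, and in the higher-scoring 50% of each list, at 0.858.

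**Figure D3:**
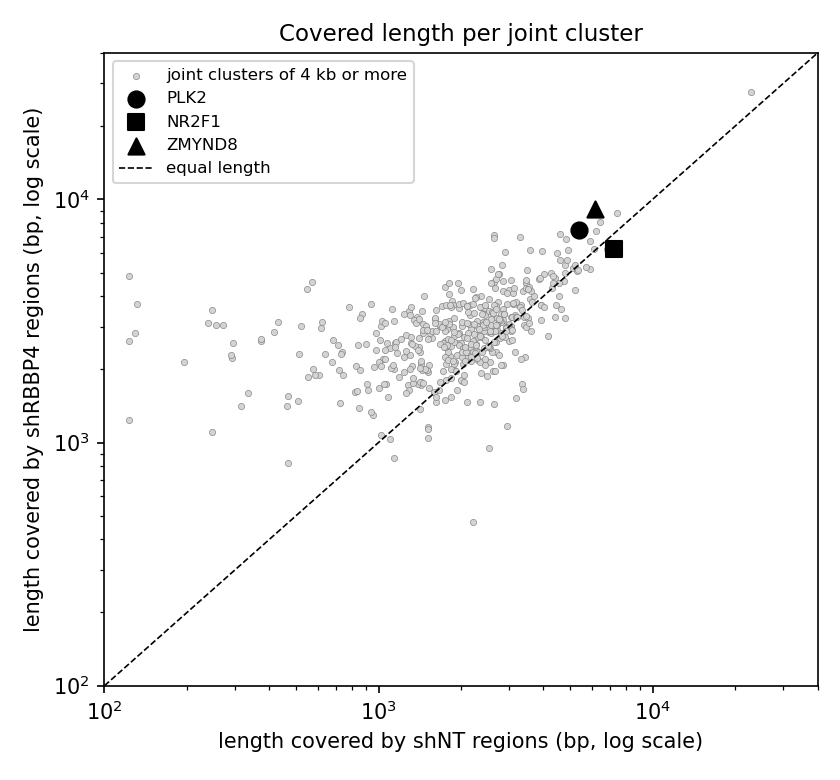
Length covered by shRBBP4 regions against length covered by shNT regions, in bp on log axes, for each of the 464 joint clusters of at least 4 kb with regions of both lists. PLK2 (5409 and 7464 bp) and ZMYND8 (6158 and 9121 bp) lie above the dashed line of equal length and NR2F1 (7207 and 6247 bp) lies below it.

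ZMYND8 had the most regions of the 3 loci in each list. The window held 20 shNT regions covering 6291 bp and 16 shRBBP4 regions covering 10059 bp, a ratio of 1.60. Within the joint cluster alone there were 19 shNT regions covering 6158 bp and 14 shRBBP4 regions covering 9121 bp, a ratio of 1.48. Chromosome 20 as a whole had a covered-length ratio of 1.86, so neither value exceeds that of its chromosome. Covered length at least 1.5 times higher in shRBBP4 was found in 39.7% of the 464 broad clusters, and the cluster falls just short of that fold. Of the 3 regions outside the cluster, an shNT region of 133 bp from 45976954 stood alone. The 2 shRBBP4 regions, of 776 and 162 bp from 45964506 and 45966178, belong to a separate joint cluster of 4149 bp that reaches outside the window, where shNT also has 3 regions.

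Several shRBBP4 regions at ZMYND8 each faced a row of shNT regions, as at PLK2 but on a smaller scale. The widest, from 45982922 to 45984962, spanned 2041 bp at rank 61 of its list and met 4 shNT regions of 167 to 467 bp. A region of 978 bp from 45981646 met 3 shNT regions, and one of 1373 bp from 45988157 also met 3. The reverse was found once. The widest shNT region, from 45986142 to 45987510, spanned 1369 bp at rank 159 and met 2 shRBBP4 regions of 793 and 1026 bp, which were separated by 88 bp. There were also 7 pairs of single regions, and in one of them both started at 45985686.

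At ZMYND8 a larger share of shNT than of shRBBP4 regions met a counterpart, as in the whole lists (77.0% and 50.04%). Of 20 shNT regions 19 overlapped an shRBBP4 region (75.1 to 99.9%), and 12 of 16 shRBBP4 regions had an shNT counterpart (47.6 to 92.7%). By bases, 5659 of the 6291 bp covered in shNT were covered in shRBBP4 too, whereas 56.3% of the shRBBP4 length was covered in shNT. Over all of chromosome 20 these shares were 82.0% of the shNT length and 44.0% of the shRBBP4 length. The shRBBP4 regions without a counterpart in the cluster, of 234 and 172 bp from 45978802 and 45980167, lay toward its left end. The latter lay inside the largest space between shNT regions of the cluster, 973 bp. No space between shRBBP4 regions within the cluster exceeded 300 bp.

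The lists thus shared more of the covered bases at NR2F1 and PLK2 than at most broad clusters. Bases covered in both lists made up 71.6% of those covered in either at NR2F1, 69.3% at PLK2 and 58.8% at ZMYND8, against a median of 47.4% over the 464 broad clusters, of which 90% lay below 68.7%. Fewer shRBBP4 than shNT regions were found in 26.3% of these clusters, PLK2 and ZMYND8 among them, and fewer regions together with more covered length in 16.6%. By the ratio of region numbers, 0.545 at PLK2 and 0.737 at ZMYND8 stood at percentiles 3.23 and 9.38 of the broad clusters, and NR2F1, with equal numbers, at percentile 33.0. By the ratio of covered lengths the order was different, with PLK2 at percentile 52.7, ZMYND8 at 59.2 and NR2F1 at 8.51. The covered-length ratios of PLK2 and ZMYND8 thus lie close to the median of 1.34, while their ratios of region numbers lie near the low end. The contrast in number ended in the higher-scoring 50% of each list, with 4 regions in both lists at PLK2 and 10 shNT and 12 shRBBP4 regions at ZMYND8. It remained in lists of equal length, which cut shRBBP4 alone, with 11 shNT and 4 shRBBP4 regions at PLK2 and 20 and 13 at ZMYND8. The position of all 3 loci in this set is a description, because breadth chose them.

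Breadth and score did not follow each other in the same way at each locus. At PLK2 the widest region was also the strongest in both lists, at score percentile 96.3 in shNT and 99.8 in shRBBP4, where it was at rank 82 by score. At NR2F1 the strongest region was the central block, 823 bp in shNT and 665 bp in shRBBP4. It stood at percentiles 99.6 and 99.1, at ranks 117 and 351, above the widest block at 95.6 and 96.0. At ZMYND8 the strongest shNT region was the widest, at percentile 90.9. In shRBBP4 the strongest was the region of 1026 bp from 45986961, at percentile 99.3, while the widest stood at 92.3.

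Taken over all regions of each window, scores ranged over most of each list. The median percentile at PLK2 was 32.1 in shNT and 60.9 in shRBBP4, and at ZMYND8 it was 51.3 and 68.5. NR2F1 had the highest medians of the loci, 88.8 and 82.7, although 3 of 10 shNT and 4 of 10 shRBBP4 regions there stood below percentile 50. The loci were chosen on breadth, and the 100 widest regions of each list had median percentiles of 96.2 and 96.8. Regions above percentile 90 numbered 5 of 10 in both lists at NR2F1, 1 of 20 and 5 of 16 at ZMYND8, and 1 of 11 and 1 of 6 at PLK2. The lowest region at ZMYND8 stood at percentile 0.524 in shNT and lay inside a stretch that shRBBP4 called as part of a region at percentile 68.5. The opposite order was also found, as in the last pair at PLK2, at percentile 64.8 in shNT and 6.75 in shRBBP4. Percentiles give the place within each list, so they do not compare strength between the lists.

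**Figure D4:**
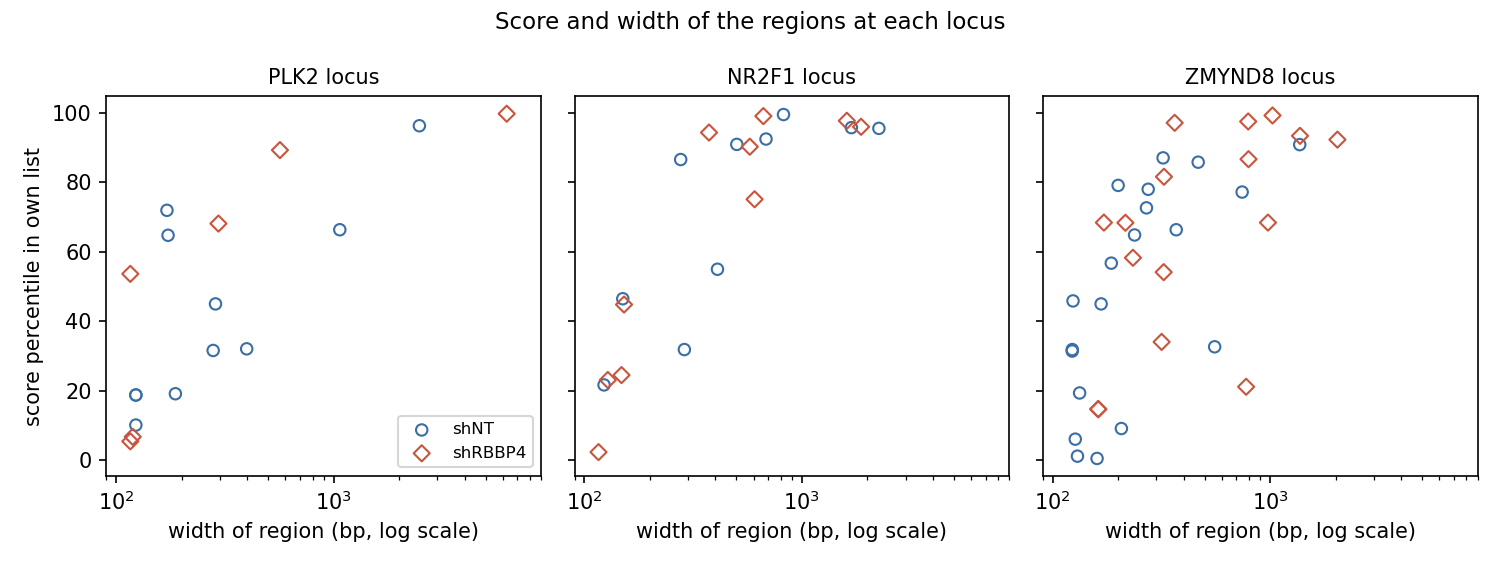
Score percentile within the own list against width in bp on a log axis, for every region of the 3 windows, with circles for shNT and diamonds for shRBBP4. At NR2F1 the circles and diamonds of the large blocks lie together near the top, and at PLK2 the shRBBP4 region of 6252 bp at percentile 99.8 stands apart.

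The narrowest regions were at the lower limit of their list in shNT at all 3 loci and in shRBBP4 at PLK2 and NR2F1. At ZMYND8 the narrowest shRBBP4 regions had 162 bp. The limit was 123 bp in shNT, shared by 12.4% of all regions there, and 116 bp in shRBBP4, shared by 10.0%. No space between regions of either whole list was under 52 bp, and the smallest spaces at the loci were 53 bp in shNT (at PLK2 and ZMYND8) and 54 bp in shRBBP4 (at NR2F1). What set these limits is not given in the sources used here, and their part in the number of regions was not tested.

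The surroundings of the loci differed. Around the PLK2 cluster neither list had a region within 100 kb on either side, and the nearest was 192493 bp away in shNT and 192540 bp in shRBBP4, both to the left. NR2F1 had none within 100 kb to the left in either list, and 5 shNT and 2 shRBBP4 regions within 100 kb to the right, the nearest 17064 and 17260 bp away. Left of the ZMYND8 cluster there were 11 shNT and 16 shRBBP4 regions within 100 kb. To its right there were 4 shRBBP4 regions and no shNT region in that distance, and the nearest shNT region was 139655 bp away. PLK2 was therefore an isolated stretch of H3K9ac in both lists, and ZMYND8 adjoined a stretch with further regions on its left.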

How the data were processed

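H3K9ac ChIP-seq regions of 1 shNT and 1 shRBBP4 library were used, and the 2 input libraries were not analysed here. Each deposited list gives a position and a score per region, and the score is the authors' own value, on a scale the files do not state. It served only to rank regions within a list. Regions were called separately per library. Per the file headers, macs2 and PE appear in the track lines, and the submitters' processing notes name bcl2fastq 2.15.0, BWA, Picard, SICER and the builds GRCh37 and hg19 without a role. The caller, its threshold and the use of the input were not settled. Read numbers are unknown, so a difference in depth can change number, width and joining of regions.

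Positions are on hg19, counted from 1. Overlap means at least 1 bp in common with the other library's list. Joint clusters join regions of both lists across gaps of up to 1 kb, and broad clusters span at least 4 kb. The members, the windows and all comparisons were chosen with earlier results of these data known. The genes to name were the 3 members. Single regions named were the widest and the strongest of each list at each locus, and others were chosen after their values were seen. With 1 library per group no p-value was computed. The overlap and joining functions were tested on simulated lists. Alternatives were score limits, lists of equal length, joining and overlap rules. The software was Python 3.11.15 with pandas 2.3.3, numpy 2.4.6, matplotlib 3.10.9 and scipy 1.17.1.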

Additional observations from a re-analysis of the deposited data

How the results depend on the processing

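No paired analysis was possible because there is 1 library per shRNA, and for the same reason no library could be left out. Of 96 recomputed values 78 stayed within 1.5 times the reported one (shares of regions: within its 95% interval), 17 moved further and 1, a covered-length ratio, changed direction. Some could not change: cutting the lists to equal length leaves shNT whole, and PLK2 and NR2F1 have no region outside their widest clusters. Intervals were also wide, 11.8 to 88.2% for shRBBP4 at PLK2, so the tally is no measure of stability. Joined across gaps of up to 1 kb, with gaps counted as covered, the NR2F1 covered-length ratio was 1.17 in place of 0.867. Joining also left 2 shNT and 1 shRBBP4 stretches at PLK2, 3 and 1 at NR2F1 and 2 and 2 at ZMYND8. It gave 10171 bp for shRBBP4 at NR2F1 and 10861 and 15725 bp for shNT and shRBBP4 at ZMYND8. The 15725 bp include a whole shRBBP4 stretch of 4149 bp from 45962191, most of which lies left of the window. The shNT regions of that separate cluster do not reach the window and were not counted, so these 2 lengths are not alike. The higher-scoring 50% of each list held 4 shNT and 4 shRBBP4 regions at PLK2, 7 and 6 at NR2F1 and 10 and 12 at ZMYND8, fewer by construction. The lower shRBBP4 region number thus ended at PLK2 and turned at ZMYND8. There the covered-length ratio was 1.86 at PLK2 and 1.95 at ZMYND8. In lists of equal length it was 1.34 and 1.42. The region number stayed lower in shRBBP4 there, with 11 shNT and 4 shRBBP4 regions at PLK2 and 20 and 13 at ZMYND8. Within 1 kb, 100% of shRBBP4 regions at PLK2, 100% of both lists at NR2F1 and 93.8% of shRBBP4 regions at ZMYND8 had a counterpart. The clusters are joined across that same distance, and these shares were not computed over the whole lists. With gaps of up to 500 bp the NR2F1 cluster spanned 5311 bp. Restricting each window to its widest joint cluster, an alternative chosen after seeing the data, moved no value by over 1.5 times. It could change values at ZMYND8 alone. Unknown depth limits every comparison between the lists.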
